A study of Rattus norvegicus with 24 samples.

Results

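The 10 genes that heart muscle is known to use as readouts of wall stress were followed here: the natriuretic peptide genes Nppa and Nppb, the clearance receptor gene Npr3, the sarcomere and stretch genes Ankrd1, Csrp3, Acta1, Xirp1 and Xirp2, and the stress-induced genes Tnfrsf12a and Gdf15. They were chosen by name with earlier results of these data known, so counts of members called beside the share of all genes are a description only. Their probes were found through the transcript accessions of the array files. Of the 10 genes, 9 had a probe named here and all 9 passed the filter on dim signal, out of 15168 genes named and 12894 genes tested. Xirp1 was not analysed here. Each of the 9 had 1 probe, which was well above background on 24 of 24 arrays.

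The samples were 24 of rat myocardium on single-colour Agilent arrays. Each of the 6 groups held 4 samples, 2 labelled male and 2 female. For the sham group the labels name no ligation. In the IRI group, ischaemia-reperfusion injury was induced by ligating the anterior descending branch of the left coronary artery. The Jiaji, Neiguan, Yanglingquan and Quchi groups had 7 days of acupuncture at that point and then the same ligation. Strain, age and the time from ligation to sampling were not among the labels used, and no group had acupuncture without ligation. The labels number the samples within groups but do not say that each came from a separate animal, so the tests speak only of the spread among these arrays, which may be technical.

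Atria and stressed ventricles secrete the peptides encoded by Nppa and Nppb, which raise cyclic GMP through the receptor encoded by Npr1 and so promote sodium excretion and vessel relaxation. The receptor encoded by Npr3 removes the peptides from the circulation. Stretch of a cardiomyocyte is sensed in part at the Z-disc and titin, where the products of Csrp3, Ankrd1 and Xirp2 are found, and stretched or overloaded ventricles are known to turn on Ankrd1 and Acta1 together with the natriuretic peptide genes.

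All levels below are log2 of an array's processed signal minus that array's 75th percentile, so that 0 stands for the 75th percentile. Levels of different genes come from different probes and are not set against each other. The share of probes well above background averaged 73.5% in Yanglingquan and 80.1% to 84.8% in the other groups. Each group was scanned apart from the others, IRI and sham on the same day and the acupoint groups on other days, so group and scan cannot be told apart in any comparison. Quchi replicate 1 was scanned apart from the other Quchi arrays. Replicate numbers matched the position of the array on its slide. The ventricular genes Myl2 and Tnni3 were well above background on 24 of 24 arrays, and so was the atrial gene Myl7, which varied from -2.22 to 1.95. In bulk tissue, fewer cells of a type and less RNA per cell cannot be told apart.

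Tnfrsf12a and Csrp3 were the members that differed most clearly between groups. Tnfrsf12a was 0.78 ± 0.21 (SE) higher in IRI than in sham (limma, Benjamini-Hochberg adjusted p = 0.0331). It stood highest in Quchi, 0.86 ± 0.21 above IRI (limma adjusted p = 0.0284). These calls ended in 8 and 7 of 20 other settings, and group and scan cannot be told apart. Csrp3 did not separate IRI from sham, and was 0.64 ± 0.15 higher in Quchi than in IRI (limma adjusted p = 0.0181), a call that ended in 6 of 20 other settings. Neither Nppa nor Nppb passed the test in any comparison of groups. Nppa split within groups, with a pair of high and a pair of low arrays in both Quchi and Jiaji.

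**Figure D1:**
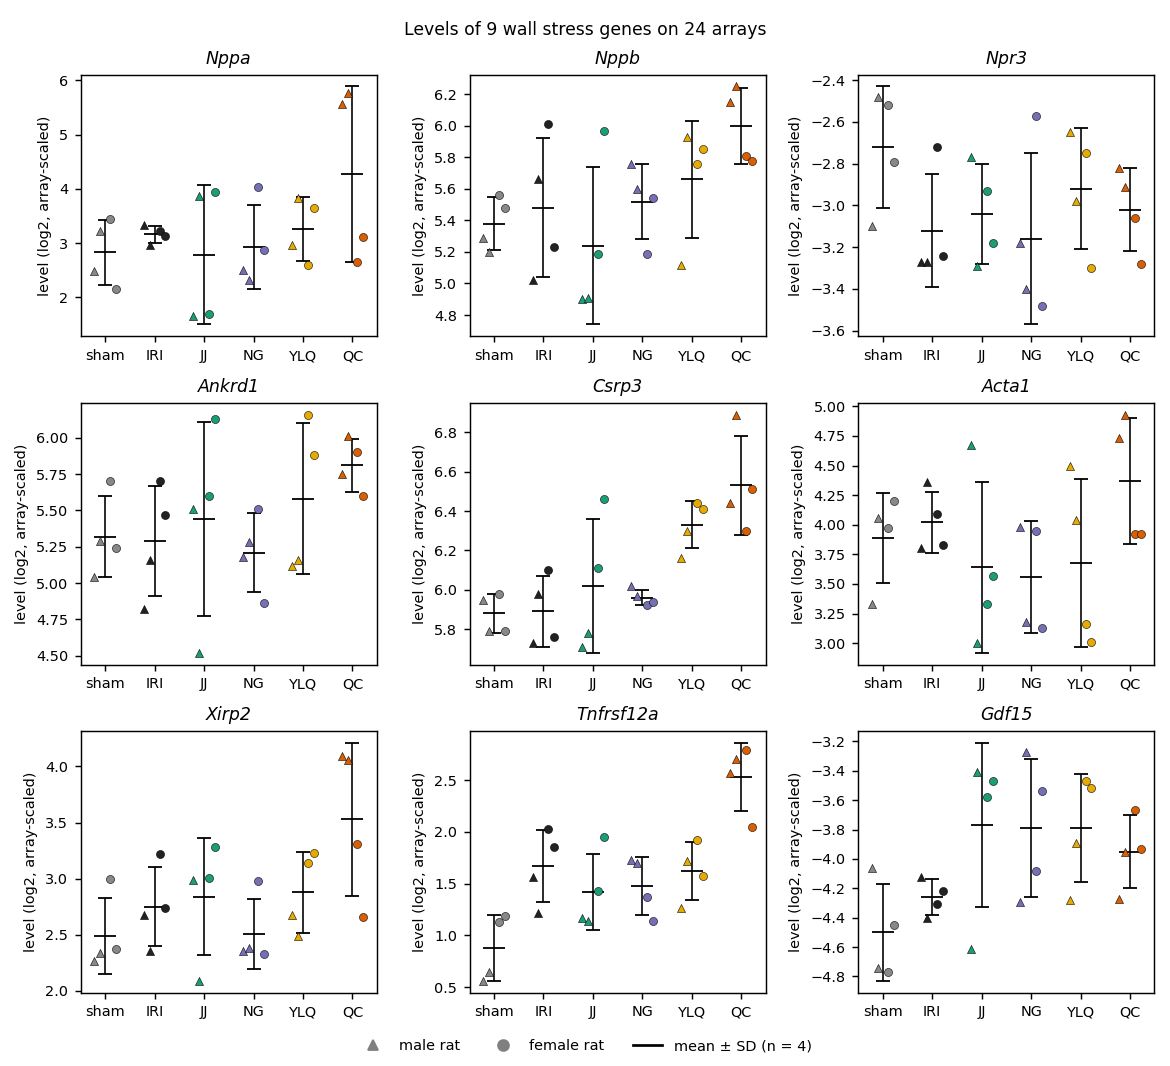
Levels of the 9 genes on every array (y axis, log2 relative to the array's 75th percentile) by group (x axis; JJ Jiaji, NG Neiguan, YLQ Yanglingquan, QC Quchi), with triangles for males, circles for females, and a bar with whiskers for mean ± SD of 4 arrays. Tnfrsf12a in Quchi lies between 2.05 and 2.79, above every IRI and sham array, while Nppa in Quchi holds replicates at 5.57 and 5.76 and others at 2.65 and 3.11.

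Nppa encodes atrial natriuretic peptide and Nppb brain natriuretic peptide. In RefSeq's GRCr8 assembly the genes are neighbours on the plus strand of chromosome 5, with start sites 12176 bases apart. Their promoters are shown because the genes lie side by side. With group means removed their correlation did not pass (r = 0.3, permutation adjusted p = 0.436), which does not show that they vary apart. Both had their highest group mean in Quchi and their lowest in Jiaji. Each line gives the 250 bases before the start, Nppa at chr5:163711934-163712183 and Nppb at chr5:163699758-163700007.
Nppa: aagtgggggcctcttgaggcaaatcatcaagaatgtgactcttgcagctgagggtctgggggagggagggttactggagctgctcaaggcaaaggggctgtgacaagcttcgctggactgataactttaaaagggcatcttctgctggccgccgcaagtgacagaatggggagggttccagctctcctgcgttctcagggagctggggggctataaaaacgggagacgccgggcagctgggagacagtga
Nppb: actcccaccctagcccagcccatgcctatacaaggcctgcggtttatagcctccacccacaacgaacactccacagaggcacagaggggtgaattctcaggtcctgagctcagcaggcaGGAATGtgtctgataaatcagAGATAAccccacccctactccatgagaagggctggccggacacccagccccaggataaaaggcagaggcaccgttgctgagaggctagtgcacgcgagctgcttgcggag
Capitals mark matches, on either strand, to the letters CATTCC (bound by TEAD factors) and AGATAA (bound by GATA factors); the other motifs searched were TGANTCA (AP-1) and the CArG box of serum response factor. The Nppb window holds CATTCC in reverse, 131 to 126 bases before the start, and AGATAA 110 to 105 bases before it. Of 33469 promoters, 12.1% held CATTCC and 10.3% AGATAA. The Nppa window held 0 matches, which says only that these letters are not in it.

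Nppa read 2.49, 3.22, 3.44 and 2.16 on the sham arrays and 3.33, 3.23, 3.14 and 2.96 on the IRI arrays. It read 1.66, 1.70, 3.95 and 3.87 in Jiaji and 5.57, 5.76, 2.65 and 3.11 in Quchi, in replicate order. Quchi replicates 1 and 2, both males, were the highest of all 24 arrays, and Quchi replicates 3 and 4, both females, lay within the range of sham and IRI. In Jiaji the low pair was a male and a female and so was the high pair. The group SD was accordingly 1.62 in Quchi and 1.29 in Jiaji against 0.16 in IRI. Neiguan ranged from 2.32 to 4.04 and Yanglingquan from 2.59 to 3.84, both overlapping IRI.

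No group comparison of Nppa passed. The Quchi mean was 1.11 ± 0.63 above IRI (limma adjusted p = 0.358) and 1.45 ± 0.63 above sham (adjusted p = 0.108). The latter became 1.96 without Quchi replicate 3 (adjusted p = 0.0376). Against IRI the other acupoints stood at -0.37 (Jiaji), -0.23 (Neiguan) and 0.09 (Yanglingquan), each with SE 0.63 and with a sign that turned when a single array was left out. Such a turn came without Jiaji replicate 1 (0.09), without Neiguan replicate 3 (0.05), and without IRI replicate 4 or Yanglingquan replicate 2 or 4 (-0.10 to -0.04).

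Atrial genes were mixed across the split of Nppa in Quchi. Of 11 atrial markers tested of 12, 1 was higher on both arrays with high Nppa than on both others, 3 were lower and 7 were neither. The higher one was Myl4, an atrial light chain gene, at 6.55 and 6.83 against 6.31 and 6.33. Myl7, the atrial myosin light chain gene, read -0.44 and -0.15 on the arrays with high Nppa and -1.42 and 0.31 on the others. Sln, the atrial sarcolipin gene, read -3.53 and -3.06 against -3.15 and -3.79. The level of the 11 markers summed on the linear scale was 119 and 139 on the Quchi arrays with high Nppa and 105 and 112 on the others, and ran from 103 to 114 in IRI and 104 to 134 in sham. Most of that sum came from Myl4, the marker already named as higher, so it is not a reading of 11 separate markers. The part of atrial tissue in the Nppa values was not tested. Those Quchi arrays were also the dimmer ones, with a 75th percentile of 9.56 and 9.72 (log2 signal) against 10.36 and 10.08, the value subtracted from every level, and its part was not tested. Col1a1, the fibrillar collagen gene, did follow the split, at 3.92 and 3.86 against 1.90 and 2.47, and its part in the Nppa values was not tested. Col1a1 was also lower in females over all groups, by 0.96 on the log2 scale (log2 fold change -0.96, limma adjusted p = 0.0109), so sex and the Quchi split cannot be told apart within that group.

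Nppb read 5.29, 5.20, 5.56 and 5.48 in sham, 5.02, 6.01, 5.23 and 5.66 in IRI, and 6.15, 6.25, 5.81 and 5.78 in Quchi. All Quchi arrays lay above all sham arrays, while IRI replicate 2 lay among the Quchi arrays. The Quchi mean exceeded sham by 0.62 ± 0.24 (limma adjusted p = 0.0672) and IRI by 0.52 ± 0.24 (adjusted p = 0.233), and neither passed. Fitted on the arrays of Quchi and sham alone, the former difference did pass (adjusted p = 0.0389). With quantile normalization the excess of Quchi fell to 0.36 over sham (limma adjusted p = 0.225) and 0.23 over IRI (adjusted p = 0.586). IRI itself stood 0.10 ± 0.24 above sham (adjusted p = 0.897), and at -0.07 without IRI replicate 2. The other acupoints differed from IRI by -0.24 (Jiaji), 0.04 (Neiguan) and 0.18 (Yanglingquan), the last 2 turning to -0.07 and -0.19 with quantile normalization.

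Npr3 was the member with its highest mean in sham. It read -3.10, -2.48, -2.52 and -2.79 in sham and -3.27, -2.72, -3.24 and -3.27 in IRI, so 3 of 4 IRI arrays lay below all sham arrays and IRI replicate 2 did not. Neiguan read -3.18, -2.57, -3.40 and -3.48, on average 0.44 ± 0.20 below sham on the log2 scale (log2 fold change -0.44, limma adjusted p = 0.129). That difference passed with quantile normalization, median scaling and the authors' processed values (-0.57 to -0.58, adjusted p = 0.0348 to 0.0436), and without Neiguan replicate 2 (-0.64, adjusted p = 0.0237). Group means of the other acupoints lay from -3.04 to -2.92, between sham and Neiguan.

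Other genes of the natriuretic peptide pathway were called at about the share of all genes. Of 16 genes listed, 15 were tested, and 0 were called between IRI and sham (median log2 fold change 0.02 against -0.03 over all genes). Against IRI, 2 were called lower in Jiaji and 2 in Yanglingquan (10.2% and 12.1% of all genes called), and 0 in Neiguan and Quchi (5.63% and 3.44%). Against sham, 2 were called lower in Jiaji, in Yanglingquan and in Quchi, and 2 higher and 1 lower in Neiguan. Of all genes, 24%, 13%, 21.1% and 19.9% were called in those comparisons, in that order. The F test among acupoints called 5 of 15, where 39.1% of all genes were called. Nppc, the C-type natriuretic peptide gene, was well above background on 4 of 4 arrays in sham and in IRI, on 1 of 4 in Neiguan, and on 0 of 4 in Jiaji, Yanglingquan and Quchi. It thus passed the filter only through sham and IRI, so no test is given for it, and its calls are among the lower ones counted here. With the dimmest signal counted as measured on each Jiaji array as the limit, the bound for Jiaji was 1.80-fold below sham in the main scaling. Without sham replicate 1, which read -4.29 where the other sham arrays read -5.80 to -5.77, that bound was 1.39-fold. Under other settings the fitted difference of Jiaji from sham came as near to 0 as -0.52. For Quchi the bound against sham was 1.63-fold, or 1.25-fold without sham replicate 1, with a fitted difference as near to 0 as -0.11. No bound above 1 remained for Yanglingquan without that array. Such bounds rest on the brightness at which a probe counts as measured. The smaller fitted differences mean that they are not lower limits under every setting.

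Ostn, the gene of osteocrin, a peptide that binds the clearance receptor, read -1.78, -1.40, -1.91 and -1.40 in Yanglingquan against -0.66 to -0.13 in IRI. The groups did not overlap, and the difference of -1.19 (limma adjusted p = 0.00319) stayed called in 20 of 20 other settings. Pde2a, a phosphodiesterase gene stimulated by cyclic GMP, was lower in Jiaji than in IRI (-0.64, limma adjusted p = 0.027), a call that ended in 6 of 20 other settings. Npr1, the signalling receptor gene of Nppa and Nppb, lay from 2.28 to 3.42 over all arrays and read 2.81 to 3.42 in Quchi, above every sham array (2.56 to 2.80) and every Jiaji array (2.28 to 2.73). The lowest Quchi array (2.81) lay close to the highest sham array (2.80), and Npr1 was not called between these groups. There 10.2% of all genes had no overlap in that direction. IRI, from 2.45 to 3.09, overlapped each of the other groups.

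Csrp3 encodes the muscle LIM protein of the Z-disc. It read 5.95, 5.79, 5.98 and 5.79 in sham, 5.73, 6.10, 5.76 and 5.98 in IRI and 6.44, 6.89, 6.30 and 6.51 in Quchi. Every Quchi array lay above every sham and IRI array, whereas sham and IRI overlapped throughout. The Quchi excess was 0.66 ± 0.15 over sham (1.58-fold, limma adjusted p = 0.00367) and 0.64 ± 0.15 over IRI (1.56-fold, adjusted p = 0.0181). The call against sham held in 20 of 20 other settings. The call against IRI ended with quantile normalization (0.34, adjusted p = 0.0958), with the authors' processed values (0.34, adjusted p = 0.0956), in a fit of those arrays alone (adjusted p = 0.144), and without IRI replicate 1 or 3 or Quchi replicate 2 (adjusted p = 0.0648 to 0.106). It held without Quchi replicate 1, the array scanned apart.

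Csrp3 also read 6.16, 6.30, 6.44 and 6.41 in Yanglingquan, again above every IRI and sham array. This difference depended on the scaling. Against IRI it was 0.43 ± 0.15 (limma adjusted p = 0.059), 0.55 with median scaling (adjusted p = 0.0316), 0.48 with normexp (adjusted p = 0.0372) and -0.03 with quantile normalization and with the authors' processed values (adjusted p = 0.928 for both). Against sham it was 0.45 ± 0.15 (adjusted p = 0.0473) and 0.04 with quantile normalization (adjusted p = 0.867), and the call ended in 15 of 20 other settings, each of the 8 that left out 1 array among them. Over the 14 ventricular markers tested of 15, the summed level ran from 1620 to 2310 in Yanglingquan against 1190 to 1320 in IRI and 1210 to 1530 in sham. It ran from 1250 to 1890 in Quchi, overlapping IRI, and from 1360 to 1600 in Jiaji and 1340 to 1660 in Neiguan, both above IRI. Csrp3 itself overlapped IRI in Jiaji (5.71 to 6.46) and Neiguan (5.92 to 6.02). The sums are given in the main scaling only. Under other settings the difference of Yanglingquan from IRI ran from -0.13 to 0.7 for Myh6 and from 0.11 to 0.79 for Myh7, both ventricular markers. The part of the ventricular markers in the Csrp3 values was not tested.

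**Figure D2:**
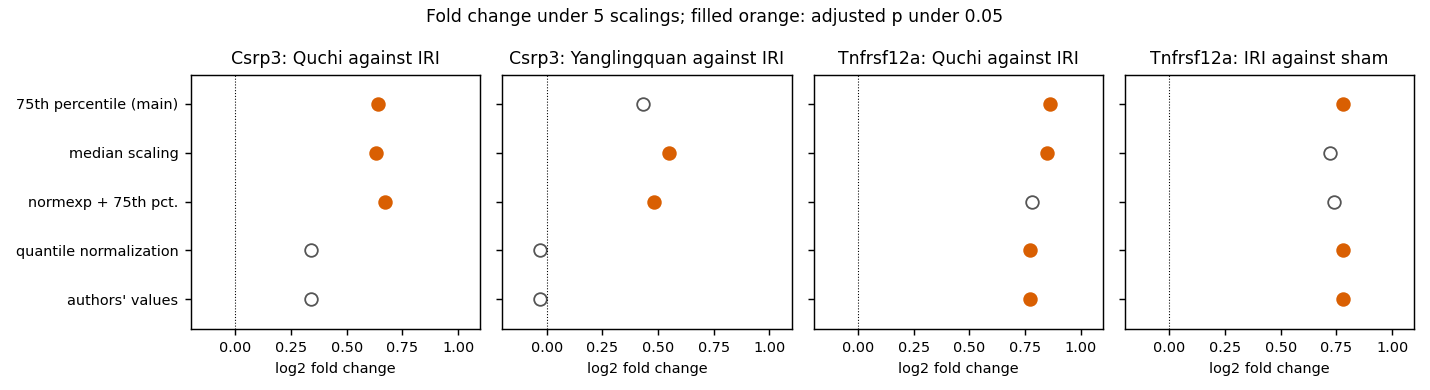
Log2 fold change (x axis) of Csrp3 and Tnfrsf12a in the comparisons named above each panel, under 5 ways of scaling the arrays (y axis); filled orange points had a limma adjusted p under 0.05. Csrp3 in Yanglingquan against IRI goes from 0.55 to -0.03 with the scaling, whereas Tnfrsf12a stays between 0.72 and 0.86.

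Xirp2 encodes a Xin repeat protein that binds actin at the intercalated disc and Z-disc. Its values were 2.27, 2.34, 3.0 and 2.37 in sham, 2.68, 3.22, 2.74 and 2.36 in IRI, and 4.09, 4.06, 3.31 and 2.66 in Quchi. Quchi replicates 1 and 2, the arrays with the highest Nppa, were also the highest for Xirp2, and Quchi replicate 4 lay within the IRI range. Against sham the Quchi mean was 1.04 ± 0.29 higher (limma adjusted p = 0.0167). This ended without Quchi replicate 1 (0.80, adjusted p = 0.0581) or 2 (0.81, adjusted p = 0.0824) and in a fit of those groups alone (adjusted p = 0.0654). Against IRI it was 0.78 ± 0.29 (adjusted p = 0.146), and 1.13 without Quchi replicate 4 (adjusted p = 0.0212).

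Ankrd1 encodes a stretch-responsive ankyrin repeat protein that binds titin and also enters the nucleus. Its values were 5.04, 5.29, 5.70 and 5.24 in sham and 4.82, 5.70, 5.47 and 5.16 in IRI. The Quchi arrays read 5.75, 6.01, 5.90 and 5.60, so 3 of 4 lay above all sham and IRI arrays, and Quchi exceeded IRI by 0.53 ± 0.24 without passing (limma adjusted p = 0.233). In Yanglingquan the males read 5.12 and 5.16 and the females 6.16 and 5.88. Over all groups Ankrd1 stood 0.41 ± 0.14 higher in females without passing (limma adjusted p = 0.226).

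Acta1, the skeletal alpha-actin gene that ventricles re-express under load, passed in 0 comparisons. It read 3.33, 4.06, 3.97 and 4.20 in sham, 3.8, 4.09, 3.83 and 4.36 in IRI, and 4.73, 4.93, 3.92 and 3.92 in Quchi. Quchi replicates 1 and 2 were above every sham and IRI array, and replicates 3 and 4 lay within their range. The array at slide position 1 exceeded those at positions 3 and 4 in 4 of 4 acupoint groups, and in sham and IRI it was the lowest of its group. Position 1 held a male in every group, so position and sex overlap in this ordering. Acta1 differed by -0.38 in females against males without passing (limma adjusted p = 0.437). A test of slide position in limma, with group and sex in the model, called 0 of 9 members and 0% of all genes. Acta1 had unadjusted p = 0.303 in that test, and Ankrd1, Tnfrsf12a and Npr3 had 0.0499, 0.0359 and 0.0151.

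The Acta1 and Xirp2 promoters carry the motifs of load-responsive factors searched here. The windows are the 250 bases before the start in GRCr8, Acta1 on the minus strand at chr19:68784195-68784444 and Xirp2 on the plus strand at chr3:72533936-72534185.
Acta1: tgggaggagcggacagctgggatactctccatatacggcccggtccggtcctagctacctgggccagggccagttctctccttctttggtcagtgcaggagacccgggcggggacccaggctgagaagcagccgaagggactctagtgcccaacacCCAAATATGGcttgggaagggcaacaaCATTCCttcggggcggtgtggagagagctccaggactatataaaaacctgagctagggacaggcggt
Xirp2: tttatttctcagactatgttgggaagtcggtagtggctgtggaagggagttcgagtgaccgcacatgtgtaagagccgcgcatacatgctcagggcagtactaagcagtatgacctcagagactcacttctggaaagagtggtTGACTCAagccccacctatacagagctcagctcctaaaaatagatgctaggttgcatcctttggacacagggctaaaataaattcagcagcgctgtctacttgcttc
Capitals mark, in Acta1, a CArG box 94 to 85 bases before the start and CATTCC 67 to 62 bases before it, and in Xirp2 a TGANTCA match that begins 107 bases before the start. Of 33469 promoters 1.5% held the CArG box searched and 6.34% TGANTCA. Promoters were matched for 8 of the 10 members.

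Among 25 mechanosensor and Z-disc genes, of which 19 were tested, 1 was called higher in Quchi than in IRI, where 3.44% of all genes were called. The called gene was Fhl1, a gene of a LIM-domain protein of the sarcomere, which read 4.20, 4.21, 3.67 and 4.16 in Quchi against 3.04 to 3.61 in IRI (0.77, limma adjusted p = 0.0138). The arrays did not overlap, but another Fhl1 probe stood at 0.10 in the same comparison, and the call ended in 5 of 20 other settings. Against sham 3 of the 19 were called higher and 1 lower in Quchi. There 21.1% of all genes were called, so this count is no result about the list. Among the called genes were Fhl1 at 0.77 (its other probe at -0.20), Ankrd2 at 1.71 and the vinculin gene Vcl at -0.64 (limma adjusted p = 0.00316, 0.0104 and 0.0116). Ankrd2, a relative of Ankrd1, shared the split of Nppa, at -2.56 and -2.37 in Quchi replicates 1 and 2 and -4.11 and -4.18 in replicates 3 and 4. Over the 9 skeletal muscle markers tested of 12, the summed level ran from 111 to 146 in Quchi, 104 to 112 in IRI and 97.7 to 116 in sham, the skeletal genes Myh1 and Myf6 were well above background on 0 arrays, and their part in these values was not tested. The skeletal list holds Ckm, the muscle creatine kinase gene, which is also on the ventricular list. The mechanosensor list had a median of 0.23 against IRI, where all genes had 0.02.

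Between Yanglingquan and IRI 12.1% of all genes were called. In Yanglingquan 2 of 19 tested genes of the mechanosensor list were called higher than in IRI, the desmin gene Des at 0.47 and Nrap at 0.74 (limma adjusted p = 0.00443 and 0.00681). So were 4 of 20 fetal and hypertrophy genes tested, led by Myh7, Atp2a2 and Myh6 at 0.68, 0.70 and 0.56 (adjusted p = 0.00365, 0.0041 and 0.0186). With quantile normalization none of these stayed called, and Myh6 stood at -0.13 (highest adjusted p over all settings 0.174 to 0.723). Another Atp2a2 probe stood at 0.38. Between IRI and sham 5.75% of all genes were called. The fetal and hypertrophy genes called there were Myc at 1.22 and the cell cycle inhibitor gene Cdkn1a at 0.60 (limma adjusted p = 0.00338 and 0.0103), both higher in IRI in 20 of 20 other settings. For serum response factor, MRTF and YAP pathway genes, 0 of 15 tested were called in IRI against sham or in Quchi against IRI (5.75% and 3.44% of all genes called). Abra, an actin-binding activator of that pathway, was higher than sham by 1.43 in Quchi, 1.18 in Yanglingquan and 0.97 in Jiaji (adjusted p = 0.000716, 0.00499 and 0.00859).

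Tnfrsf12a encodes Fn14, the receptor of the cytokine TWEAK, and is known to be induced in injured muscle. Its promoter is given as the 250 bases before the start on the minus strand of GRCr8 chr10:13213649-13213898. The promoter is shown because Tnfrsf12a had the clearest differences between groups, and it held 0 matches to the motifs searched.
Tnfrsf12a: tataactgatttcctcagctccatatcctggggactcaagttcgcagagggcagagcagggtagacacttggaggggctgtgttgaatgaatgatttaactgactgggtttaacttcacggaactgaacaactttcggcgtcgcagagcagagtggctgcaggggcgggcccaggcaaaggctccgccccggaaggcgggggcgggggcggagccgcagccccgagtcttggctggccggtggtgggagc

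On the sham arrays Tnfrsf12a read 0.56, 0.65, 1.13 and 1.19, and on the IRI arrays 1.56, 2.03, 1.85 and 1.22. In Quchi it read 2.57, 2.70, 2.79 and 2.05. All IRI arrays lay above all sham arrays, with the lowest IRI array (1.22) close to the highest sham array (1.19), and all Quchi arrays lay above all IRI arrays. IRI exceeded sham 1.72-fold, Quchi exceeded IRI 1.82-fold, and Quchi exceeded sham 3.12-fold, by 1.64 ± 0.21 (limma adjusted p = 7.64e-05).

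The call of Quchi against sham held in 20 of 20 other settings, with adjusted p from 5.03e-06 to 0.00623. The call of IRI against sham ended with median scaling (0.72, limma adjusted p = 0.0775), with normexp (0.74, adjusted p = 0.0579), and on removal of any of replicates 1 to 3 of IRI or of sham (0.69 to 0.83, adjusted p = 0.0578 to 0.107). The call of Quchi against IRI ended with normexp (0.78, adjusted p = 0.0737), in a fit of those groups alone (adjusted p = 0.15), and without IRI replicate 1, 3 or 4 or Quchi replicate 2 or 3 (0.74 to 0.89, adjusted p = 0.0548 to 0.146). The summed level of neutrophil markers, over 9 tested of 10, ran from 2.39 to 5.0 in IRI and from 1.16 to 4.59 in sham. In IRI 1 of the 9, Cxcr2, was called higher than in sham (1.05, adjusted p = 0.0215), where 5.75% of all genes were called. The list median was 0.82 where all genes had -0.03. In Quchi against sham 4 of the 9 were called higher, Elane (2.17), Cxcr2 (0.90), Csf3r (0.79) and Fpr1 (0.77; adjusted p = 0.00286, 0.0202, 0.00508 and 0.0282), where 21.1% of all genes were called. The list median there was 0.79 where all genes had 0.04. In Quchi the macrophage gene Csf1r was 0.68 above IRI (adjusted p = 0.000712) and the endothelial gene Tie1 differed by -0.77 (adjusted p = 0.024), each the only called gene of its list of 10 and 9 tested (3.44% of all genes called). In that comparison the macrophage list had a median of 0.03 and the endothelial list -0.22, where all genes had 0.02. The part of these cells in the Tnfrsf12a values was not tested.

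The other acupoint groups lay between sham and IRI or near IRI. Tnfrsf12a read 1.26, 1.72, 1.92 and 1.57 in Yanglingquan, 0.73 ± 0.21 above sham (limma adjusted p = 0.0281), a call that ended with normexp (adjusted p = 0.0713) and without sham replicate 1 or 2 or Yanglingquan replicate 2 or 3 (adjusted p = 0.0682 to 0.0869). In Neiguan and Jiaji it was 0.60 and 0.54 above sham without passing (adjusted p = 0.0514 and 0.0704). Both passed with quantile normalization and the authors' processed values (adjusted p = 0.0351 to 0.0396). From highest to lowest the means ran Quchi, IRI, Yanglingquan, Neiguan, Jiaji and sham. Ordering the 6 group means of each of the 9 genes gives 45 neighbouring pairs. Quchi and IRI for Tnfrsf12a were the only such neighbours whose arrays did not overlap. Gaps exceeded the larger SD for 3 of the 45: that pair, Jiaji and sham for Tnfrsf12a, and Quchi and IRI for Gdf15.

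The gene of the ligand, Tnfsf12 (TWEAK), differed from its receptor in Quchi. It read 3.13, 3.01, 2.90 and 3.02 in sham, 3.31, 3.20, 3.20 and 3.48 in IRI, 4.06, 3.70, 4.05 and 3.86 in Neiguan and 3.50, 3.49, 2.94 and 3.37 in Quchi. Neiguan lay above IRI throughout (0.62, limma adjusted p = 0.00181, called in 20 of 20 other settings) and Quchi overlapped it. Every IRI array lay above every sham array, as for the receptor, without a call. Against sham it was called higher in Jiaji (0.61), Neiguan (0.90) and Yanglingquan (0.72; limma adjusted p = 0.000615, 1.04e-05 and 0.000419). Yanglingquan was 0.44 above IRI (adjusted p = 0.0171), a call that ended in 2 of 20 other settings. Of 15 tested genes of TWEAK and Gdf15 stress pathways, 2 were called higher than IRI in Jiaji and 2 in Neiguan, 1 in Yanglingquan and 0 in Quchi, where 10.2%, 5.63%, 12.1% and 3.44% of all genes were called. Those in Jiaji were the glutathione-degrading gene Chac1 at 0.58 (adjusted p = 0.00469) and Nfkb2, a subunit gene of NF-kB, at 0.51 (adjusted p = 0.0243), and Nfkb2 was also called in Neiguan, at 0.60 (adjusted p = 0.0123). The list's median was 0.30 in Jiaji, 0.24 in Neiguan, 0.07 in Yanglingquan and 0.03 in Quchi, where all genes had -0.01, -0.05, -0.04 and 0.02.

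Gdf15, the gene of a circulating stress cytokine, was faint but well above background on all arrays. It read -4.06, -4.74, -4.77 and -4.45 in sham, -4.12, -4.31, -4.22 and -4.40 in IRI, and -4.61, -3.58, -3.47 and -3.41 in Jiaji. In Jiaji 3 of 4 arrays lay above every sham and IRI array and replicate 1 lay below every IRI array. Jiaji exceeded sham by 0.73 ± 0.25 (limma adjusted p = 0.0383), a call that ended in 11 of 20 other settings, with 0.38 under quantile normalization (adjusted p = 0.321), 0.46 under median scaling and 0.30 under normexp. Arrays whose removal ended it were sham replicates 2, 3 and 4 and Jiaji replicates 2, 3 and 4 (0.57 to 0.72, adjusted p = 0.0736 to 0.124). Neiguan, Yanglingquan and Quchi exceeded sham by 0.71, 0.71 and 0.55 (adjusted p = 0.0513, 0.0656 and 0.122), and each passed without sham replicate 1 (adjusted p = 0.0201, 0.029 and 0.0481). With normexp these differences were 0.25, 0.46 and 0.32 (limma adjusted p = 0.334, 0.122 and 0.217). The Gdf15 array at slide position 1, a male in every group, was the lowest of its group in 4 of 4 acupoint groups and the highest in sham and IRI. The limma test of slide position gave Gdf15 an unadjusted p of 0.201.

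Counted over the 9 members tested, calls were few and all were higher. IRI against sham gave 1 member (Tnfrsf12a) where 5.75% of all genes were called in either direction. Against IRI, Quchi gave 2 (Csrp3 and Tnfrsf12a), where the share of all genes was 3.44%. Jiaji, Neiguan and Yanglingquan gave 0, where 10.2%, 5.63% and 12.1% of all genes were called. At an unadjusted limma p under 0.05 those 3 had 0, 0 and 1 members, where 23.5%, 19.7% and 26.3% of all genes were, and Quchi had 5, where 19% were. Between Quchi and IRI the genes called over all numbered 444, and 122 to 695 with 1 array left out: 122 without Quchi replicate 2, 695 without Quchi replicate 1, 174, 683, 280 and 241 without IRI replicates 1, 2, 3 and 4. The median fold change of the 9 against IRI was 0.53 in Quchi, 0.18 in Yanglingquan, 0.08 in Jiaji and -0.08 in Neiguan, beside 0.02, -0.04, -0.01 and -0.05 over all genes. All 9 were above 0 in Quchi, as were 52.9% of all genes.

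Against sham, Quchi gave 3 members (Csrp3, Tnfrsf12a and Xirp2) where 21.1% of all genes were called, Yanglingquan 2 where 13% were, Jiaji 1 where 24% were and Neiguan 0 where 19.9% were (3 at an unadjusted limma p under 0.05, where 35.4% of all genes were). With 9 members, 1 or 2 calls at such background shares are no result about the members. Arrays of the 2 groups compared did not overlap, with the former above, for 1 member in IRI against sham (8.65% of all genes), 2 in Quchi against IRI (4.85%), 1 in Yanglingquan against IRI (5.42%), 0 in Jiaji and Neiguan against IRI (11.5% and 8.3%), 3 in Quchi against sham (10.2%), 2 in Yanglingquan against sham (7.49%) and 0 in Jiaji and Neiguan against sham (17.3% and 14.8%). The comparisons with IRI share the 4 IRI arrays and those with sham the 4 sham arrays, so their values are not independent of each other. Females against males gave 0 members (1 unadjusted, where 12.5% of all genes were) where 0.209% of genes were called. An F test of limma over the means of the 4 acupoint groups called 3 members, Tnfrsf12a (range of means 1.1, adjusted p = 0.00154), Csrp3 (0.57, adjusted p = 0.0116) and Xirp2 (1.02, adjusted p = 0.0478), where 39.1% of all genes were called. The F test calls of Tnfrsf12a and Csrp3 held in 28 of 28 other settings and that of Xirp2 ended in 18.

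**Figure D3:**
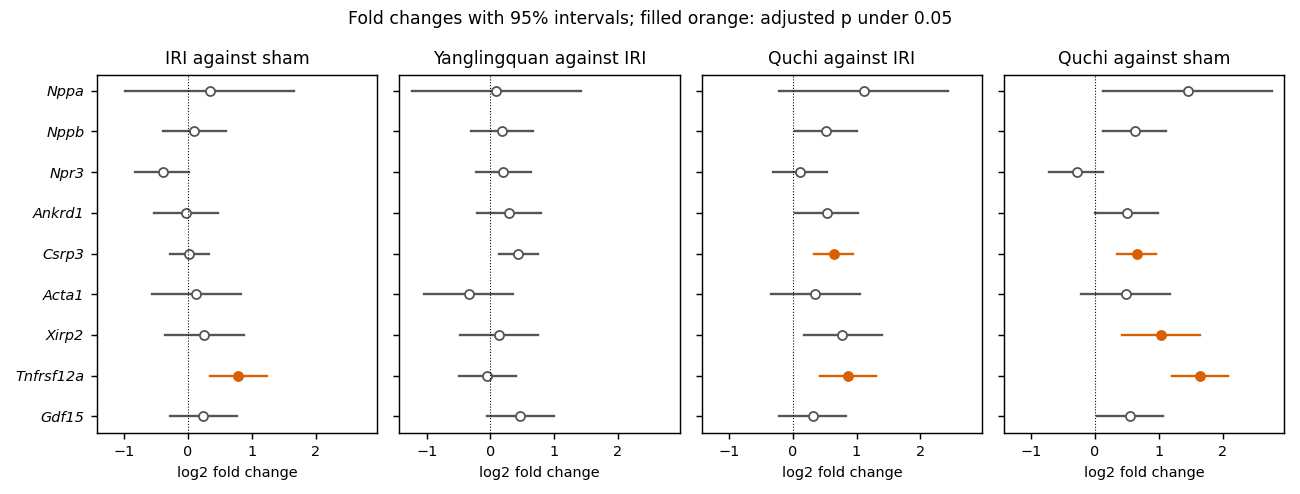
Log2 fold change of each of the 9 genes (points) with its 95% interval from limma (lines) in 4 comparisons, where filled orange points had an adjusted p under 0.05. All 9 points lie above 0 in Quchi against IRI, with Nppa at 1.11 and the widest interval, from -0.21 to 2.43.

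Some pairs of the panel's genes also varied together, or in opposite directions, from array to array. With group means removed, 36 pairs of the 9 genes were correlated over the 24 arrays, and p-values came from 100000 permutations of arrays within groups, adjusted over the 36 pairs. Unlike in the limma fit, differences between the sexes were left in, and their part in these correlations was not tested. Both Pearson's r and Spearman's rho passed for 6 pairs. Nppb and Csrp3 rose and fell together (r = 0.805, rho = 0.754, permutation adjusted p = 0.00156 and 0.00516; r = 0.729 without the 2 arrays farthest from the median of Nppb). So did Ankrd1 and Xirp2 (r = 0.75, rho = 0.735, permutation adjusted p = 0.00156 and 0.00516; r = 0.672 without such arrays) and Ankrd1 and Tnfrsf12a (r = 0.649, rho = 0.664, permutation adjusted p = 0.0188 and 0.0137; r = 0.579). With slide position means removed too, these became 0.781, 0.765 and 0.39. With quantile normalization and only group means removed, they were 0.696, 0.753 and 0.674.

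Acta1 and Gdf15 moved in opposite directions (r = -0.87, rho = -0.847, permutation adjusted p = 0.00156 and 0.0036; r = -0.799 without the 2 farthest arrays). Npr3 went with Acta1 (r = 0.632, rho = 0.674, permutation adjusted p = 0.0184 and 0.0127; r = 0.577) and against Gdf15 (r = -0.638, rho = -0.672, permutation adjusted p = 0.0188 and 0.0137; r = -0.688). With slide position removed, these were -0.828, 0.585 and -0.711. With quantile normalization and only group means removed, they were -0.844, 0.598 and -0.441. The neighbours Nppa and Nppb had r = 0.3 (permutation adjusted p = 0.436). Of the 36 pairs 27 had r above 0, with a median of 0.223. The same measures over pairs of all genes were not computed, so these are no result about the panel.

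**Figure D4:**
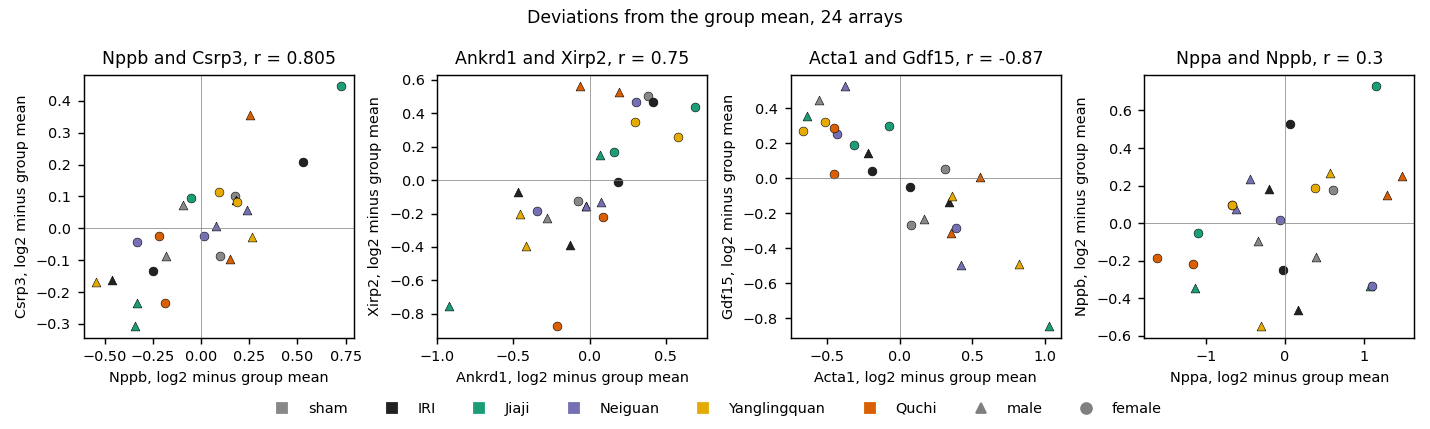
Deviation of each of 24 arrays from its group mean (log2) for 4 pairs of genes, coloured by group, with triangles for males and circles for females. Nppb and Csrp3 rise together (r = 0.805), as do Ankrd1 and Xirp2 (r = 0.75), Acta1 and Gdf15 run opposite (r = -0.87), and Nppa and Nppb form a loose cloud (r = 0.3).

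Among 12662 other genes without missing values, those closest to a member over the 24 arrays were named by Pearson's r, as a description. For Nppb the closest by level was Csrp3 itself (0.803), and with group means removed Ccn1, a matricellular gene known as a YAP target (0.847). For Ankrd1 it was Cpe, the carboxypeptidase E gene, both ways (0.875 and 0.894). For Csrp3 it was E4f1 by level (0.835) and Nppb with group means removed (0.805). For Nppa the closest were Tceal7, Cspg4 and Col8a1 by level (0.735, 0.733 and 0.731) and Ankrd2 with group means removed (0.771). All of these values share the same libraries and group structure.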

How the data were processed

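Each sample of rat myocardium was measured on 1 single-colour Agilent array. Per the file headers, the deposited processed intensity was background-subtracted and spatially detrended within the array by Feature Extraction 11.0.1.1 (the submitters' processing notes name 10.7.3.1) and not normalized between arrays. The well-above-background and outlier flags used are other columns that the same program set per spot, per the file headers. The authors' deposited value table holds log2 values with a median of 7.2 on every array, which correlated at 0.997 or more with log2 processed intensity; its normalization is not named in those sources.

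Here, 1377 control spots per array and 8733 outlier spots over all arrays were left out, 42877 spots per array remained, and spots of a probe were averaged. Each array's 75th percentile was subtracted from log2 processed intensity. Probes were named through their RefSeq accessions, which gave 1 symbol for 18005 of 30367 probes (59.3%); the rest are unnamed here. Probes well above background on every array of at least 1 group passed (25149), and the brightest passing probe stood for a gene, leaving 12894 genes. The fit used R 4.3.3 and limma 3.58.1 with group and sex terms over all 24 arrays (17 residual degrees of freedom); called means a Benjamini-Hochberg adjusted p under 0.05 over all genes tested. Scripts were tested on simulated data. Python 3.11.15 ran the permutation tests and the promoter search in RefSeq sequences.

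The members and gene lists were chosen with earlier results of these data known. Named genes are the members, up to 3 called genes of smallest p per list and comparison, and genes of highest correlation with members (1 such result is not reported here); Col1a1, Myl4, Myl7, Sln, Npr1 and the cell type markers named outside this rule were picked after their values were seen. Alternatives covered scaling, background, the authors' values, filters, probe choice, sex term, groups fitted, replicate block, scan and leaving out each array. Quantile normalization and the authors' values gave nearly the same fold changes for the members, so these settings are not independent of each other. Normexp (offset 50) used the median spot signal in place of the mean signal, which was not used here. The number of arrays limits the precision.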

Additional observations from a re-analysis of the deposited data

Results flagged for a closer look

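In 54 groups of 4 arrays, 1 per gene and group, Dixon's test was applied to the array farthest from the others. Chance sets apart about 1 in 20 such groups (5 percent), and 4 were set apart. Xirp2 read 3.0 on sham replicate 3, where the other sham arrays read 2.27 to 2.37, and 2.98 on Neiguan replicate 2, where the others read 2.33 to 2.38. Gdf15 read -4.61 on Jiaji replicate 1, below the -3.58 to -3.41 of the other Jiaji arrays. Npr3 read -2.72 on IRI replicate 2, above the -3.27 to -3.24 of the other IRI arrays.

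The 4 acupoint groups differed from each other in a moderated F test of limma for Tnfrsf12a (adjusted p = 0.00154), Csrp3 (adjusted p = 0.0116) and Xirp2 (adjusted p = 0.0478). The same test called 39.1% of all genes, so these 3 calls among 9 members do not set the members apart. The Xirp2 call ended in 18 of 28 other settings. Each acupoint group was also scanned apart from the others, so acupoint and scan cannot be told apart.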

How the results depend on the processing

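Of the values compared under other settings, 1180 kept direction and side of the threshold, 112 lost the call, 29 gained one and 11 turned sign; without 1 array the counts were 890, 151, 13 and 10. The cause was not tested. The count of members called between IRI and sham went from 1 to 0 with median scaling and normexp, and in Yanglingquan against IRI from 0 to 1 with both and with scan as a random block. In Quchi against IRI it went from 2 to 1 with quantile normalization, normexp and the authors' values and to 0 with only the groups compared. Against sham, Jiaji went from 1 to 2 with quantile normalization, the authors' values, the replicate block, the scan block and the percentile over spots, and to 0 with normexp. Neiguan went from 0 to 2 with quantile normalization, the authors' values, the all-array filter, the replicate block and the percentile over spots, to 1 with median scaling and to 3 with the scan block. Yanglingquan went from 2 to 1 with quantile normalization, median scaling, normexp, the authors' values, no filter, only the groups compared, the replicate block and the percentile over spots. Quchi went from 3 to 5 with the scan block, and the F test from 3 to 5 with median scaling.

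Without 1 array the counts ran from 0 to 1 for IRI and for Jiaji against sham, 0 to 3 for Neiguan against sham and Quchi against IRI, 2 to 4 for Quchi against sham and the F test, 0 to 2 for Yanglingquan against sham, and stayed at 0 elsewhere. Signs turned for uncalled values of Nppb in Neiguan against IRI (-0.07 with quantile normalization and the authors' values, -0.03 with median scaling, -0.10 to 0.21 without 1 array) and IRI against sham (-0.07 to 0.23 without 1 array). In Yanglingquan against IRI they turned for Csrp3 (-0.03), Nppb (-0.19) and Nppa (-0.01 and -0.02; -0.10 to 0.27 without 1 array), and for Myh6, which was called (-0.13), with quantile normalization and the authors' values. Nppa turned without 1 array in Jiaji (-0.84 to 0.09) and Neiguan (-0.68 to 0.05) against IRI.

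Replicate numbers did not pair the arrays: deviations of same-numbered arrays correlated at 0.0341 on average (others -0.0114), over 0.1 for 23 of 60 pairs. With the replicate block, 2 members were called in Jiaji and in Neiguan against sham and 1 in Yanglingquan against sham, and genes called between sexes went from 27 to 3.

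Over all genes, calls between IRI and sham went from 742 to 1636 with the scan block. Those against IRI went in Jiaji from 1314 to 2369 with median scaling (740 higher and 1629 lower, from 1082 and 232) and 2526 with the scan block, in Neiguan from 726 to 1257 with normexp and 1804 with the scan block, in Yanglingquan from 1563 to 650 with normexp and 3043 with the scan block, and in Quchi from 444 to 32 with only the groups compared and 1324 with the scan block. Against sham they went in Jiaji from 3096 to 6864 and in Neiguan from 2565 to 4327 with median scaling, in Yanglingquan from 1677 to 788 and in Quchi from 2720 to 1790 with only the groups compared. Calls between sexes went from 27 to 160 with normexp. Without 1 array, calls went as low as 440 for IRI against sham (sham 3), 858 for Jiaji (IRI 2) and 456 for Neiguan (Neiguan 1) against IRI, and 1657 for Neiguan (sham 3), 837 for Yanglingquan (sham 2) and 1562 for Quchi (Quchi 2) against sham, and as high as 73 between sexes (sham 4). With median scaling, the all-gene median became -0.23 in Jiaji against IRI and to -0.36 and -0.24 in Jiaji and Neiguan against sham. The correlation within scans was -0.0998, below 0, which narrows the errors of the scan block; scan as a fixed term could not be fitted. The percentile over spots, the median-signal normexp and both uses of slide position and the Nppc bound without 1 sham array were chosen after seeing the data.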
